A study of Mus musculus with 8 samples.

Results

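The 10 genes described here belong to the circadian clock and its direct outputs: Arntl, Clock, Per1, Per2, Per3, Nr1d1, Nr1d2, Dbp, Tef and Ciart. They were chosen by name, and the array measured 10 of 10, among 19938 genes in all. A gene measured by several probe sets was represented by the brightest; of the 10 only Ciart had more than 1. The study asked how lack of tumour necrosis factor (TNF), a cytokine, alters the brain, and measured gene expression in lysates of whole brain. The mice were adult males, 2 to 4 months old. Of the 8 arrays, 4 carried the label TNF-/- and 4 the label TNF+/+, the latter described as C57BL/6 wild type. Each array held total RNA of 1 biological replicate, taken from frozen brain. The labels give neither the targeted allele nor the strain of the TNF-/- mice. They also give no time of day at which brains were collected, so where in the daily cycle any animal stood is not known.

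The mammalian clock is a feedback loop. CLOCK and BMAL1, the protein of Arntl, activate genes through E-boxes in their promoters, and the PER proteins accumulate and shut this activation down. In a tissue sampled around the clock, Arntl therefore runs broadly opposite in phase to the Per genes, the REV-ERB receptor genes Nr1d1 and Nr1d2, and the output genes Dbp and Tef. The REV-ERB receptors repress Arntl through a shared DNA element. DBP and TEF bind D-boxes, and CIART (CHRONO) represses the activator pair. Per1 is also an acute response gene, induced by neuronal activity and by glucocorticoids.

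Promoter sequences near the starts were searched for the letters of these elements. RefSeq windows on mouse GRCm38.p6, from 250 bases before to 50 bases after a transcript start, were found for 9 of the 10 genes and gave 14 windows; Per2 was not analysed here. Letters searched on both strands were CACGTG for the E-box, CACGTT for its E-prime variant, TTATGNAA for the D-box, TAGGTCA or TGGGTCA for the REV-ERB/ROR element, and TGACGTCA for the cAMP response element. E-box and E-prime box patterns can share letters, and no 2 matches found here overlapped. Positions are counted in bases from the transcript start, negative before it. An E-box lay in 4 of the 14 windows, those of 3 genes (Per1, Tef and Ciart), against 7.15% of all 32851 windows in the table. In Ciart it occurred 3 times, at -116, -58 and -44. Tef had 1 in the window of each of its 2 starts, at -127 and -138, and Per1 had 1, at -166 from its first start. D-boxes lay in 2 of the 14 windows, in Per1 at -24 and in Per3 at -205 and -158, against 3.38% of all windows. Nr1d1 held an E-prime box at -28 (4.68% of all windows), and Arntl held a REV-ERB/ROR element at 31, after its second start (6.45%). The cAMP response element was in none of the 14 windows and in 1.79% of all windows. A match is a description of the letters, not a site shown to be bound. Elements outside the windows, or spelled otherwise, were not searched, so a window without a match does not show that an input is absent.

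The 4 genes with E-boxes or D-boxes are shown because these motifs, unlike the others, matched in more than 1 gene. The sequences are the 250 bases before the start, 5′ to 3′ on the strand of the gene, with motif matches in capitals. They show 3 E-boxes in Ciart (minus strand, chr3:95882229-95882478), 1 E-box at the first start of Tef (plus strand, chr15:81802423-81802672), an E-box and a D-box at the first start of Per1 (plus strand, chr11:69098699-69098948), and 2 D-boxes in Per3 (minus strand, chr4:151044666-151044915).
Ciart: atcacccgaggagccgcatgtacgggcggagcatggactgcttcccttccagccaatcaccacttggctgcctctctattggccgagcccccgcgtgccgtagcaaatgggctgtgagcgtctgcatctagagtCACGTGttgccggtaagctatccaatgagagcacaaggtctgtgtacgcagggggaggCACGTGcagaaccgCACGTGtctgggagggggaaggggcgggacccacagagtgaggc
Tef: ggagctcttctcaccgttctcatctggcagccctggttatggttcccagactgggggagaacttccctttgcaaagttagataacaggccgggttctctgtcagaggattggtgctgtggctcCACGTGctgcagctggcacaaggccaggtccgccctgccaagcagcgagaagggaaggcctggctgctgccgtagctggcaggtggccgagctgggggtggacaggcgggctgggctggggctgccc
Per1: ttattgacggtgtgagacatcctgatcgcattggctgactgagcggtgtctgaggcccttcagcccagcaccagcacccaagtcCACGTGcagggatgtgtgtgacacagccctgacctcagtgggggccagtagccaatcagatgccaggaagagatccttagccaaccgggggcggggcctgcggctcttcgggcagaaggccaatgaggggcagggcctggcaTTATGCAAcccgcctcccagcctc
Per3: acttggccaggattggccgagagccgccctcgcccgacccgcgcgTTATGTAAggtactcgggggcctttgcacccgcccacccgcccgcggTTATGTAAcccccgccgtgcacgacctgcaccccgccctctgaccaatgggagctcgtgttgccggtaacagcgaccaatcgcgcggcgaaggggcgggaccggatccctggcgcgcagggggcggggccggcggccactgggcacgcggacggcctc

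**Figure D1:**
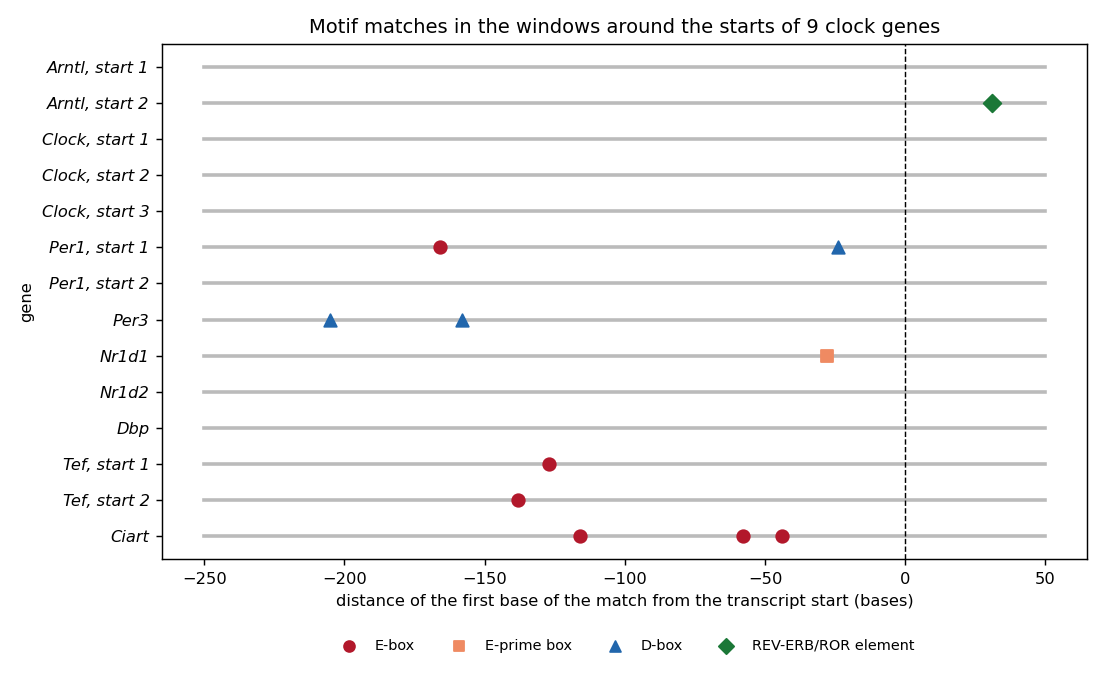
Positions of motif matches in 14 windows around the transcript starts of 9 clock genes. The horizontal axis is the distance of the first base of each match from the start in bases (dashed line at 0), grey bars are the windows, and symbols give the kind of motif. E-boxes sit in Per1, Tef and Ciart, and D-boxes in Per1 and Per3.

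The arrays themselves were checked before the clock genes were read. Array medians lay between 5.03 and 5.11 on the log2 scale, and no 2 arrays were identical. Signal of Tnf, the targeted gene, went against the labels: it was 5.67, 5.87, 5.92 and 6.21 in the arrays labelled TNF-/- and 4.48, 4.93, 4.24 and 4.47 in those labelled TNF+/+, or 1.39 ± 0.16 higher (SE; limma, adjusted p = 0.0278; 0.0321 to 0.114 with single arrays left out, under 0.05 only without TNF+/+ array 2). Had it lain outside the deleted part of the gene, its probe set would check nothing, and the labels do not say which part that is. Such a probe set and exchanged labels cannot be told apart here, and an exchange would turn the sign of every difference and every count of higher and lower genes given below. Directions below are therefore those of arrays as labelled. Neuronal marker genes were bright (list means 10.8 to 10.9) and liver genes dim (single signals of 3.51 to 5.09). Means of 4 oligodendrocyte genes were 9.15 to 9.26 under TNF-/- and 9.31 to 9.66 under TNF+/+, and those of 5 meningeal genes 6.62 to 6.72 and 6.32 to 6.52. TNF+/+ array 1 had the highest mean of the cerebellum genes, 7.39 against 5.38 to 5.57 elsewhere. Of these genes, Gabra6 and Cbln3 were at 8.21 and 7.07 in that array. In all other arrays they were at 4.01 to 4.42 and 3.93 to 4.41, within the range of the liver genes. Cbln1 and Zic1 lay above that range in every array. They too were highest in TNF+/+ array 1, at 8.23 (6.66 to 6.96 elsewhere) and 8.57 (7.92 to 8.34 elsewhere). So was the dim Pcp2, at 4.86 (3.94 to 4.23 elsewhere). Signals of the cerebellum genes were thus not alike in all arrays, and which parts of the brain each array holds was not tested. TNF+/+ arrays 3 and 4 stood apart on the first principal component.

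Among the activator genes, Clock was the only 1 of the 10 whose groups did not overlap. Its log2 signal was 8.75, 8.79, 8.77 and 8.64 in the arrays labelled TNF-/- and 8.61, 8.62, 8.54 and 8.49 in those labelled TNF+/+. Every array labelled TNF-/- lay above every array labelled TNF+/+, by as little as the gap between 8.64 and 8.62. The difference of 0.17 ± 0.06 (SE), or 1.13-fold, did not pass over all probe sets (limma, adjusted p = 0.361), and the exact two-sided permutation p of 0.0286, unadjusted, is the smallest that 4 against 4 arrays can give. Of all genes, 4.16% had every array labelled TNF-/- on top and 7.66% were separated in one direction or the other (3.5% with every such array below). Without TNF+/+ arrays 3 and 4 the difference was 0.12 (limma, adjusted p = 0.577). In bulk tissue, fewer cells of a type and less RNA per cell cannot be told apart. The means of the oligodendrocyte and meningeal genes given above differed between the same groups, and their part in this difference was not tested.

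Arntl, the partner of Clock, stood at 7.92, 7.89, 7.82 and 7.75 under TNF-/- and at 7.58, 7.74, 7.82 and 7.74 under TNF+/+. The groups overlapped, with the lowest signal of all in TNF+/+ array 1. The difference was 0.12 ± 0.07 (SE; limma, adjusted p = 0.551), and 0.08 without that array. The cerebellum genes were highest in the same array, and their part in this value was not tested.

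For the Per genes, which encode the repressor arm of the loop, no difference between the labels passed. Per1 signal was 7.09, 7.01, 6.93 and 6.59 under TNF-/- and 6.82, 7.11, 7.21 and 6.79 under TNF+/+, a difference of -0.08 ± 0.13 (SE; limma, adjusted p = 0.856). The lowest and the highest array, TNF-/- 4 and TNF+/+ 3, were 1.53-fold apart, and both groups spanned most of that range. Per2 signal was 5.37, 5.36, 5.60 and 5.11 under TNF-/- and 5.63, 5.29, 5.02 and 5.29 under TNF+/+, near the array medians, so little can be read from it (0.05 ± 0.14, SE; limma, adjusted p = 0.907). Per3 was narrower: 6.58, 6.64, 6.66 and 6.59 under TNF-/- and 6.72, 6.54, 6.43 and 6.49 under TNF+/+. Both the highest and the lowest Per3 signal were in arrays labelled TNF+/+ (0.07 ± 0.07, SE; limma, adjusted p = 0.738). The sign of the difference turned for Per1 without TNF-/- array 4 (0.028), for Per2 without TNF-/- array 3 (-0.027) or TNF+/+ array 3 (-0.043), and for Per2 and Per3 without TNF+/+ arrays 3 and 4 (-0.099 and -0.017).

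Nr1d1 and Nr1d2 encode REV-ERB alpha and beta, nuclear receptors that bind haem and repress Arntl. Nr1d1 signal was 9.22, 9.10, 9.37 and 9.40 under TNF-/- and 9.26, 9.36, 9.50 and 9.29 under TNF+/+. Nr1d2 signal was 9.01, 9.19, 9.32 and 9.25 under TNF-/- and 9.15, 8.93, 9.24 and 9.20 under TNF+/+. In both genes the groups overlapped widely, with differences of -0.08 ± 0.09 and 0.06 ± 0.09 (SE; limma, adjusted p = 0.748 and 0.831). Without TNF+/+ array 2 that of Nr1d2 was -0.0050.

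The output genes Dbp and Tef encode related transcription factors of the PAR bZIP family. Dbp signal was 7.75, 7.80, 7.99 and 8.34 under TNF-/- and 8.01, 7.95, 8.21 and 8.09 under TNF+/+. Arrays labelled TNF-/- held both extremes, 1.5-fold apart, with an SD of 0.27 against 0.12 in the other group (n = 4 each). The difference of means was -0.10 ± 0.13 (SE; limma, adjusted p = 0.806), and -0.02 to -0.22 with 1 array left out. Tef signal was 7.46, 7.49, 7.55 and 7.38 under TNF-/- and 7.41, 7.35, 7.36 and 7.21 under TNF+/+. Only TNF-/- array 4 lay below a TNF+/+ array, and the difference was 0.14 ± 0.06 (SE; limma, adjusted p = 0.485; exact permutation p = 0.0571). Without TNF+/+ arrays 3 and 4 it was 0.09 (limma, adjusted p = 0.695).

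Ciart had the largest difference of the 10 and the widest spread. Its brighter probe set gave 6.80, 6.93, 7.11 and 7.44 under TNF-/- and 7.11, 7.52, 7.40 and 7.53 under TNF+/+, or -0.32 ± 0.15 (SE; limma, adjusted p = 0.484). The 3 lowest arrays were labelled TNF-/- and the fourth of that label lay within the TNF+/+ range. The other probe set of Ciart did not follow: it gave 6.52, 6.22, 6.64 and 7.04 under TNF-/- and 6.39, 6.82, 7.07 and 6.33 under TNF+/+, or -0.05 ± 0.21 (SE; limma, adjusted p = 0.945). Across the 8 arrays both probe sets correlated at r = 0.52, so which of them follows the transcript is not known. The brighter was taken by brightness alone, and where in the genome the probes of each lie was not checked. TNF+/+ array 4 was the highest of the 8 in the brighter probe set and the second lowest in the dimmer.

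**Figure D2:**
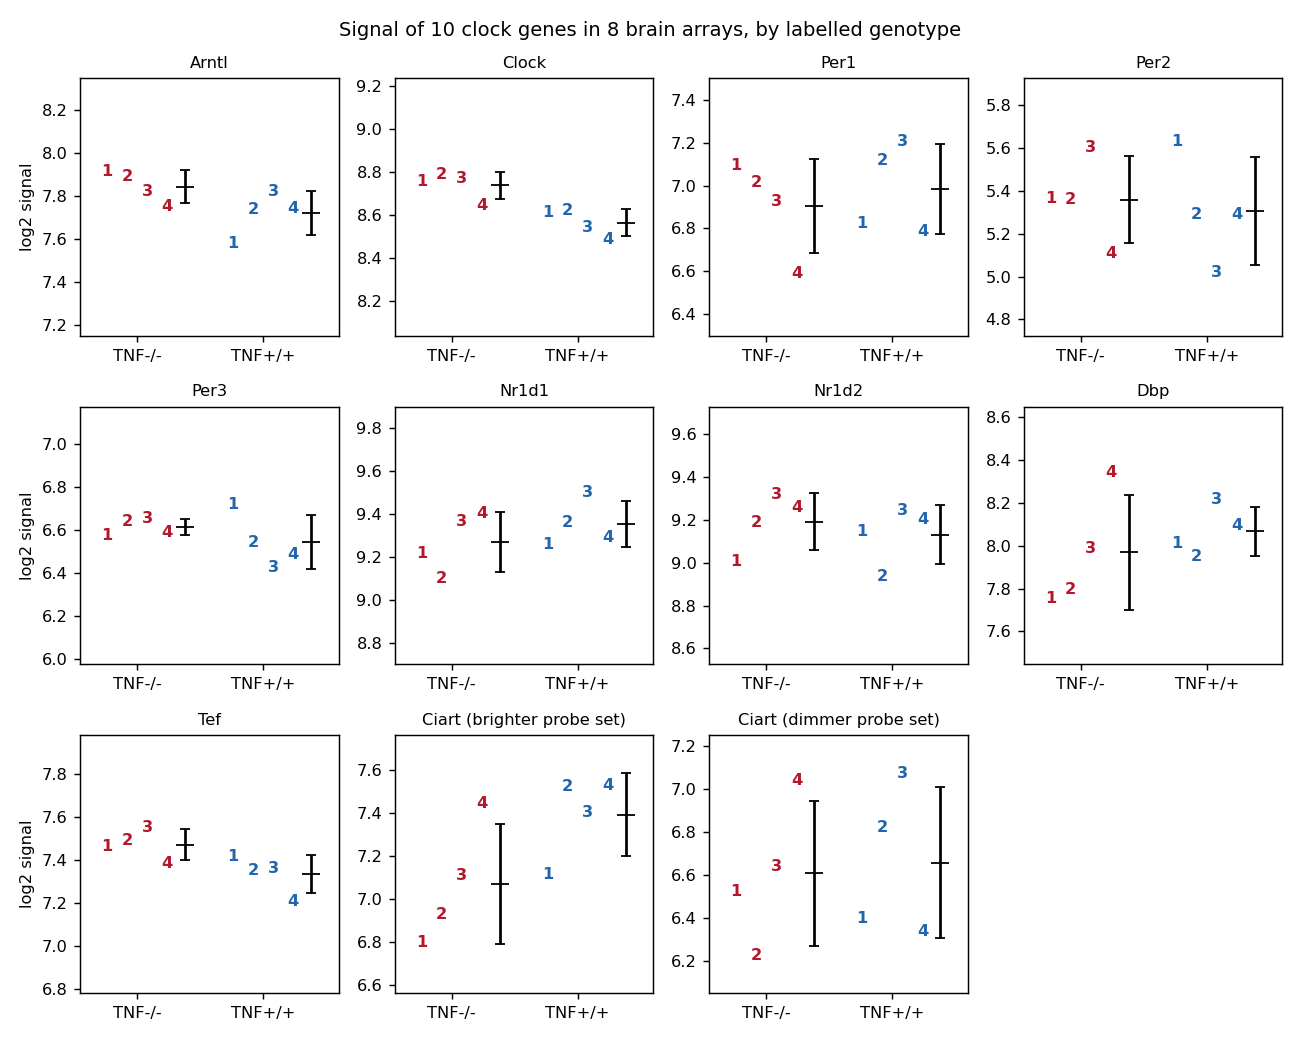
Log2 signal (vertical axis, the same span in every panel) of 10 clock genes in 8 brain arrays, grouped by label along the horizontal axis; digits are replicate numbers, and black bars are the mean ± SD of 4 arrays. Clock is the only panel without overlap, by 8.64 against 8.62; Dbp spans 7.75 to 8.34 within the TNF-/- group, and both probe sets of Ciart disagree on TNF+/+ array 4.

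Counted together, 0 of the 10 genes passed (limma, adjusted p under 0.05), against 29 of 35556 probe sets (0.0816%) and 10 of 19938 genes (0.0502%). At an unadjusted p under 0.05 there was 1, Clock, against 11.7% of all genes. Signals were higher under TNF-/- for 6 genes and lower for 4, with a median difference of 0.06. Over all genes the median was -0.01 and 47.8% were higher. With so few calls over the array, a count of 0 says little about these genes.

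The members differed in how far the 8 arrays were spread. The fold between the highest and lowest of the 8 arrays ran from 1.23 for Clock and Per3 to 1.66 for Ciart. In SD over the 8 arrays, Ciart stood at percentile 96.8, Per1 at 84.9 and Dbp at 83.1 of the 9969 genes brighter than the median gene. The other 6 bright members lay below the median of these genes. Per2 was below the brightness limit.

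A daily cycle sampled at different phases could move Arntl, and its partner Clock, against the other 8 genes. Of these 16 pairs, 10 had a negative Pearson's r across the 8 arrays (6 of Arntl, 4 of Clock), with a range of -0.80 to 0.92 and a median of -0.12. Among the 28 pairs of the other 8 genes, 13 were positive. Those 8 genes need not peak at the same hour, nor Clock cycle as Arntl does, so the counts cannot decide on a cycle. Without the 2 arrays farthest from the median of the first gene, 7 of the 16 were negative, and the other settings tried gave 8 to 11. Over all 45 pairs 0 passed (exact permutation, Benjamini-Hochberg over 45) and 6 had an unadjusted exact p under 0.05.

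Arntl with Dbp, the pair in which opposite phases are best known, gave r = -0.42 (exact permutation p = 0.305, adjusted 0.529) and Spearman's rho of -0.40 (exact permutation p = 0.327). Within labels r was -0.34, without the 2 farthest arrays -0.52, and 13.9% of all genes were as negative against Arntl. TNF-/- arrays 1 and 2 had the highest Arntl and the lowest Dbp signals, while the highest Dbp, in TNF-/- array 4, came with a middling Arntl. Clock with Dbp gave r = -0.62 (exact permutation p = 0.104, adjusted 0.489; rho = -0.60, exact permutation p = 0.132).

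The closest pair, Clock with Tef, ran the other way. Its r was 0.92 (exact permutation p = 0.00119, adjusted 0.0536) and its rho 0.86 (exact permutation p = 0.0107). Within labels r was 0.84 (exact permutation p = 0.0226, adjusted 0.339), and without the 2 farthest arrays 0.86. Only 0.306% of all genes correlated as highly with Clock. The adjusted p was 0.0446 without TNF+/+ array 1 (r = 0.93), where Arntl with Ciart also passed (r = -0.95, adjusted exact permutation p = 0.0446). That Ciart value is of its brighter probe set alone, and the pair was not tested with the dimmer probe set in those arrays. With all arrays kept, Arntl with Ciart gave r = -0.47 (adjusted exact permutation p = 0.498). With the mean of both Ciart probe sets in the family the adjusted p of Clock with Tef was 0.0268. Nr1d1 with Ciart passed beside that pair (r = 0.90, adjusted exact permutation p = 0.0268).

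Among the output and repressor genes, Dbp was high in the arrays where Nr1d1 was high (r = 0.78, exact permutation p = 0.024; rho = 0.76, exact permutation p = 0.0368), and likewise with Ciart (r = 0.75, exact permutation p = 0.0355; rho = 0.64, exact permutation p = 0.0962). Tef did not join them: against Ciart its r was -0.76 (exact permutation p = 0.0244; rho = -0.88, exact permutation p = 0.00724). Clock with Ciart gave -0.80 (exact permutation p = 0.0259; rho = -0.74, exact permutation p = 0.0458), and Per2 with Per3 0.82 (exact permutation p = 0.0128; rho = 0.79, exact permutation p = 0.0279). Adjusted over the 45 pairs, these 5 stood at 0.233 to 0.266. Without the 2 farthest arrays r was 0.70 for Nr1d1 with Dbp, 0.63 for Dbp with Ciart, -0.94 for Tef with Ciart, -0.69 for Clock with Ciart and 0.52 for Per2 with Per3. With the dimmer probe set of Ciart in the pairs, 0 of 45 passed and 4 had an unadjusted exact p under 0.05. With that probe set r was -0.26 for Clock with Ciart, -0.10 for Tef with Ciart and 0.69 for Dbp with Ciart (adjusted exact permutation p = 0.755, 0.958 and 0.54), so the first 2 of these relations were seen with the brighter probe set alone.

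**Figure D3:**
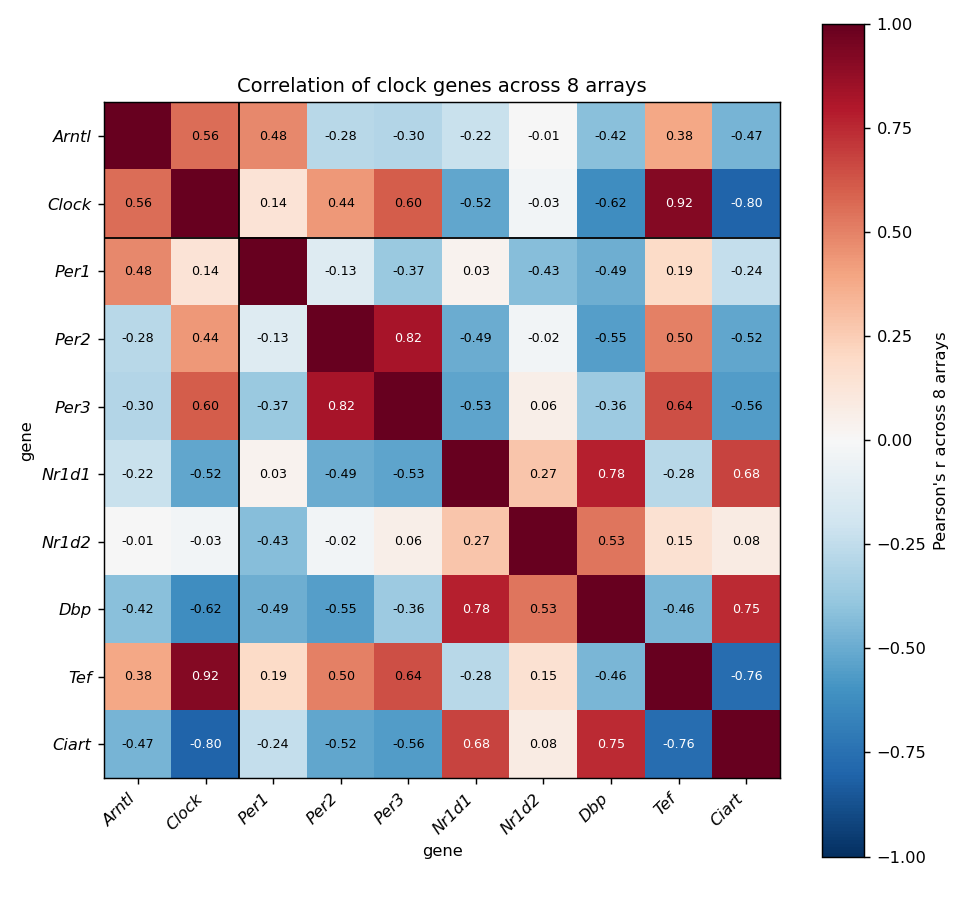
Pearson's r of each pair of 10 clock genes across 8 arrays (colour and number; axes list the genes, Ciart by its brighter probe set, and black lines set off Arntl and Clock). Of the 16 pairs of Arntl or Clock with another gene 10 are negative; Clock with Tef is the highest of all at 0.92 and Clock with Ciart the lowest at -0.80.

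An array-wide property moved with some of these pairs. Among bright genes, the median deviation of the longest 20% by genomic span minus that of the shortest 20% was 0.06, 0.09, 0.03 and -0.02 in the arrays labelled TNF-/- and 0.04, 0.06, -0.09 and -0.17 in those labelled TNF+/+. This measure, chosen after the values were seen, correlated with Clock at r = 0.82 (exact permutation p = 0.0097, adjusted over the 10 genes 0.097; rho = 0.69, exact permutation p = 0.0694). Tef gave 0.78 (exact permutation p = 0.0212; rho = 0.48, exact permutation p = 0.243) and Dbp -0.64 (exact permutation p = 0.0883; rho = -0.81, exact permutation p = 0.0218). Without the 2 arrays farthest from the median of the measure, r was 0.41 for Clock, 0.26 for Tef and -0.90 for Dbp, so the first 2 relations rest on those arrays. Within labels, with all 8 arrays kept, r was 0.90 for Clock (exact permutation p = 0.00521), 0.72 for Tef (exact permutation p = 0.0642) and -0.61 for Dbp (exact permutation p = 0.0347). TNF+/+ arrays 3 and 4 had the lowest values of the measure and the lowest Clock signals. Its part in the correlations between members was not tested.

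Per1 went with 4 of 6 genes that mark recent neuronal activity, at r of 0.85 to 0.96, and 1 of those pairs passed by Pearson's r. The 10 clock genes were paired with 14 genes that mark acute cues (6 immediate early genes, 6 glucocorticoid targets and 2 temperature-dependent RNA-binding proteins); the family of pairs was formed after values were seen. Of the 140 pairs, 2 passed by Pearson's r and 15 had an unadjusted exact p under 0.05. Nr4a1, an orphan nuclear receptor gene induced within minutes to hours of stimulation, had signals of 9.42, 9.23, 8.90 and 7.85 under TNF-/- and 8.99, 9.29, 9.75 and 8.65 under TNF+/+. With Per1 its r was 0.96 (exact permutation p = 0.000174, adjusted over 140 pairs 0.0243) and its rho 0.95 (exact permutation p = 0.00114). The array lowest in both, TNF-/- 4, and the highest in both, TNF+/+ 3, carry opposite labels. Within labels r was 0.96, and without the 2 farthest arrays 0.91. No other gene of the array correlated more highly with Per1 (0.00502% of genes, the gene itself). With the 6 glucocorticoid targets Per1 gave r of -0.33 (Errfi1) to 0.57 (Sgk1), and none of these pairs had an unadjusted exact p under 0.05.

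Of the other immediate early genes, Dusp1, a phosphatase gene of the MAP kinase pathway, stood at r = 0.90 (exact permutation p = 0.00295, adjusted 0.11; rho = 0.95, exact permutation p = 0.00114). By rho Per1 with Dusp1 passed (adjusted exact permutation p = 0.0399). Arc, which encodes a synaptic protein, stood at 0.87 (exact permutation p = 0.00419, adjusted 0.117; rho = 0.90, exact permutation p = 0.00456), but at 0.57 without the 2 farthest arrays. Fos stood at 0.85 (exact permutation p = 0.00744, adjusted 0.15; rho = 0.67, exact permutation p = 0.0831). Egr1 stood at 0.47 (exact permutation p = 0.24; rho = 0.24, exact permutation p = 0.582). Junb stood at 0.22 (exact permutation p = 0.59; rho = 0.26, exact permutation p = 0.536), but its signals of 4.22 to 4.63 lay within the range of the liver genes, so little can be read from them. Arc itself spanned 6.65 in TNF-/- array 4 to 8.80 in TNF+/+ array 3, the same arrays that bounded Per1. Between the labels, 0 of these 6 genes passed (limma); 5 were lower under TNF-/-, with the dim Junb at -0.26 ± 0.06 (SE; adjusted p = 0.238), Egr1 at -0.52 ± 0.20 (adjusted p = 0.414) and Arc at -0.54 ± 0.39 (adjusted p = 0.637).

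Nr1d1 paired with a glucocorticoid target. Tsc22d3, which encodes the glucocorticoid-induced leucine zipper, had signals of 5.98, 5.77, 6.22 and 6.26 under TNF-/- and 5.98, 6.08, 6.45 and 6.03 under TNF+/+. Its r with Nr1d1 was 0.97 (exact permutation p = 0.000347, adjusted 0.0243) and its rho 0.98 (exact permutation p = 0.000397). Within labels r was 0.98, and without the 2 farthest arrays 0.90. Other glucocorticoid targets did not share this pattern to the same degree: Sgk1 stood at 0.73 (exact permutation p = 0.0386, adjusted 0.405; rho = 0.69, exact permutation p = 0.0694), and none of the rest had an unadjusted exact p under 0.05 with Nr1d1. Dbp with Tsc22d3 gave r = 0.76 (exact permutation p = 0.0298, adjusted 0.393) and rho = 0.67 (exact permutation p = 0.0831). Without the 2 farthest arrays its r was 0.84. Between the labels Fkbp5 differed by 0.22 ± 0.08, Errfi1 by 0.13 ± 0.05 and Pdk4 by 0.23 ± 0.11 (SE; limma, adjusted p = 0.41, 0.433 and 0.485), and 0 of 6 passed.

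Dbp, Nr1d1 and Ciart were set beside the cold-inducible RNA-binding protein genes Rbm3 and Cirbp, which respond to body temperature; by Pearson's r none of these pairs passed. Rbm3 signal was 9.97, 10.05, 10.39 and 10.55 under TNF-/- and 10.21, 10.31, 10.41 and 10.25 under TNF+/+. With Dbp it gave r = 0.91 (exact permutation p = 0.00315, adjusted 0.11; rho = 0.81, exact permutation p = 0.0218), and 0.75 without the 2 farthest arrays. Nr1d1 with Rbm3 gave r = 0.84 (exact permutation p = 0.00962, adjusted 0.15) and 0.94 without the 2 farthest arrays, and by rho, at 0.95, it passed (adjusted exact permutation p = 0.0399). Cirbp signal was 8.46, 8.44, 8.81 and 9.22 under TNF-/- and 8.94, 8.88, 8.87 and 9.22 under TNF+/+, with r = 0.84 against Dbp (exact permutation p = 0.00769, adjusted 0.15; rho = 0.79, exact permutation p = 0.0279) and 0.84 against Ciart (exact permutation p = 0.00957, adjusted 0.15; rho = 0.81, exact permutation p = 0.0218). Without the 2 farthest arrays these were 0.68 and 0.51. Ciart with Rbm3 gave 0.74 (exact permutation p = 0.0405; rho = 0.55, exact permutation p = 0.171) and 0.17 without the 2 farthest arrays. These Ciart values are of its brighter probe set alone, and which of its probe sets follows the transcript is not known. TNF-/- arrays 1 and 2 were lowest in Dbp, Rbm3 and Cirbp alike. Between the labels Rbm3 differed by -0.05 ± 0.13 and Cirbp by -0.24 ± 0.17 (SE; limma, adjusted p = 0.897 and 0.636); the sign of Rbm3 turned without TNF-/- array 1 (0.036) or 2 (0.0090).

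Whether both calls among the 140 pairs held varied with the setting, while r stayed between 0.90 and 0.99 for both pairs in the settings run. Subtracting each array's median gave 0 calls (adjusted exact permutation p = 0.0556 and 0.059). Leaving out TNF+/+ arrays 3 and 4 gave r = 0.95 for Per1 with Nr4a1 and 0.96 for Nr1d1 with Tsc22d3. With 720 orderings of 6 arrays a call would need 4 pairs at the smallest possible p, so the 0 calls there say nothing about stability. The same holds for deviations from the label means (r = 0.96 and 0.98), where both pairs were at the smallest p that the 576 orderings allow (exact permutation p = 0.00174), and 5 such pairs are needed against 4 found. Quantile normalization kept Per1 with Nr4a1 alone. With single arrays left out, omitting TNF-/- array 3 gave 4 calls, omitting TNF+/+ array 2 gave 2, and omitting any other array gave 0.

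**Figure D4:**
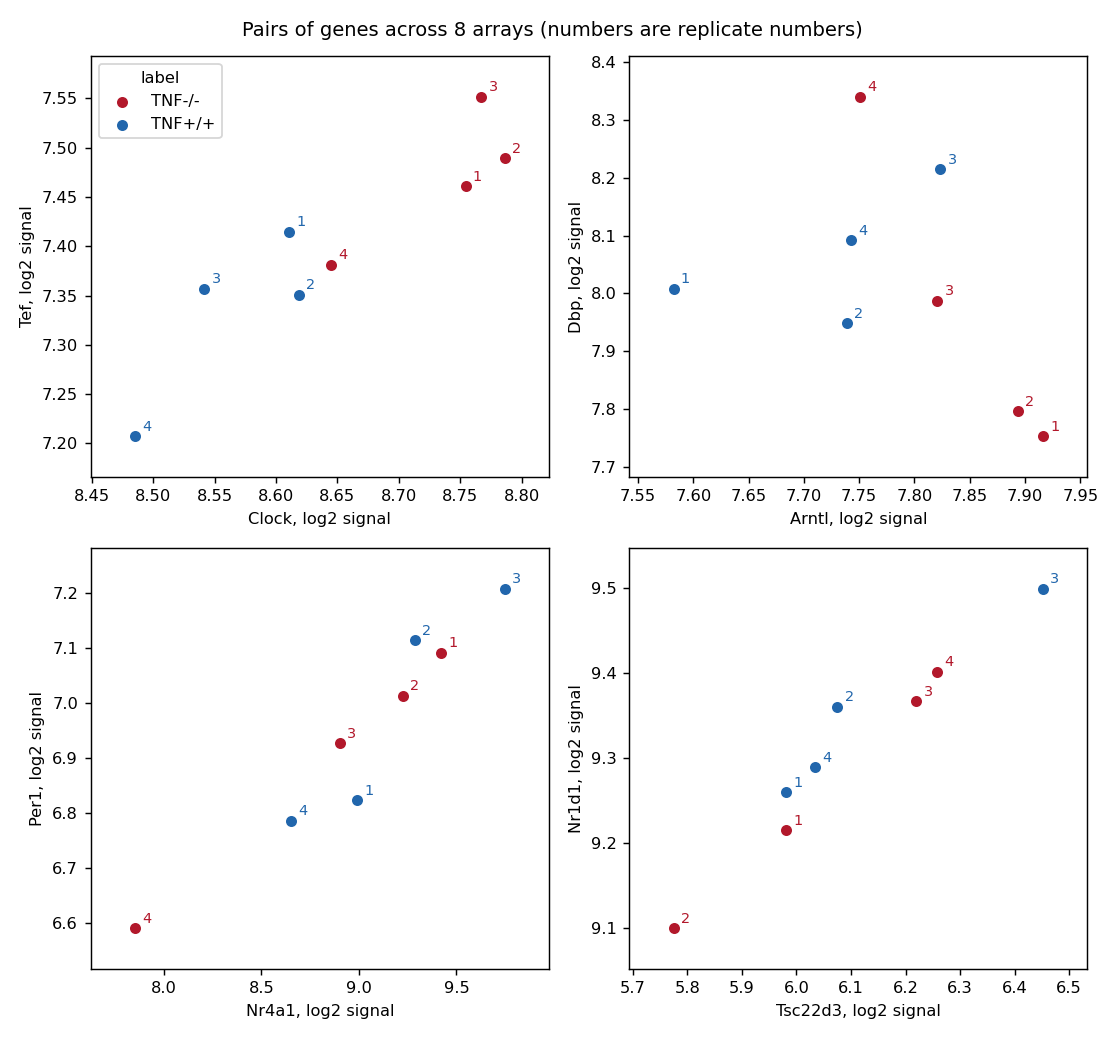
Log2 signal of 4 pairs of genes in 8 arrays, coloured by label and numbered by replicate. Clock with Tef (r = 0.92), Per1 with Nr4a1 (0.96) and Nr1d1 with Tsc22d3 (0.97) lie along a rising line, whereas Arntl with Dbp (-0.42) scatters. Labels mix along the lines of Per1 and Nr1d1, but all arrays labelled TNF-/- have the higher Clock signals.

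The rest of the pathway was described from the 22 measured genes of a list of further clock genes. By limma 0 of the 22 passed, 14 were higher and 8 lower under TNF-/-, and 7 had an unadjusted p under 0.05, with a median difference of 0.06. Over all genes 0.0502% passed, 11.7% had an unadjusted p under 0.05 and 47.8% were higher. Rorb, which encodes a retinoid-related orphan receptor that activates Arntl through the element REV-ERB represses, stood at 8.24, 8.29, 8.41 and 8.35 under TNF-/- and 8.07, 8.18, 8.02 and 8.02 under TNF+/+. All 4 arrays labelled TNF-/- lay above the others (0.25 ± 0.06, SE; limma, adjusted p = 0.251). Usp2, a clock-controlled deubiquitinase gene, stood at 7.16, 7.49, 7.24 and 7.46 under TNF-/- and 7.52, 7.62, 7.60 and 7.58 under TNF+/+, without overlap in the other direction (-0.24 ± 0.08, SE; limma, adjusted p = 0.371). Of the 22, 1 was separated above and 1 below, near the shares over all genes (4.16% and 3.5%). Among the other loop components, Rora differed by 0.14 ± 0.06 and Nfil3, a repressor of D-box genes, by 0.34 ± 0.17 (SE; limma, adjusted p = 0.457 and 0.51). Of the kinase genes, Gsk3b differed by 0.19 ± 0.08 and Prkaa2, an AMP-activated kinase subunit, by 0.16 ± 0.07 (SE; limma, adjusted p = 0.433 and 0.457). Of the outputs, Lonrf3 differed by 0.42 ± 0.17 and Tspan4 by -0.17 ± 0.07 (SE; limma, adjusted p = 0.437 and 0.457).

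**Figure D5:**
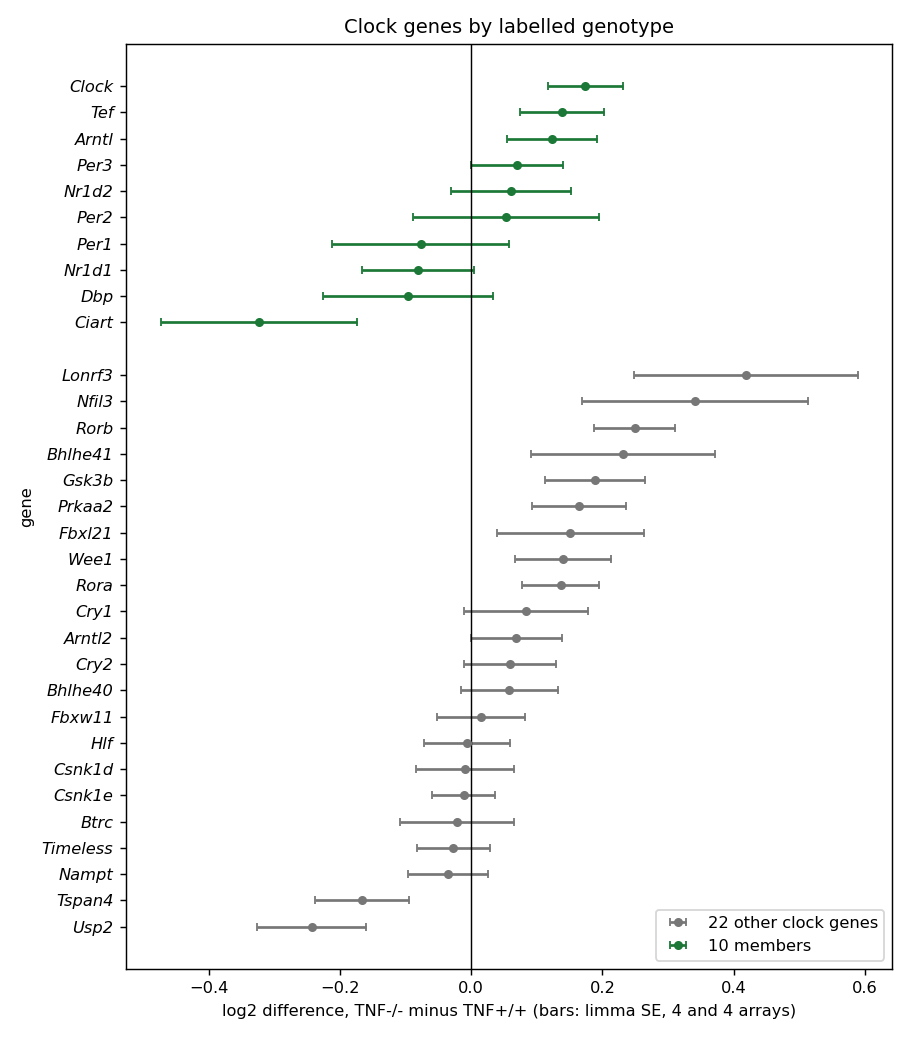
Difference in log2 signal, arrays labelled TNF-/- minus arrays labelled TNF+/+ (horizontal axis; bars are limma's SE, 4 arrays per group), of the 10 clock genes (green) and 22 further clock genes (grey). None passed at an adjusted p under 0.05. The differences run from -0.32 for Ciart (brighter probe set) to 0.42 for Lonrf3.

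The suprachiasmatic nucleus is the master clock of the brain and a small part of it. Of 9 genes that mark it, 3 were higher and 6 lower under TNF-/-, and 0 passed (limma). Vipr2, the receptor gene for its peptide VIP, differed by 0.24 ± 0.13, Six6, a homeobox gene, by -0.17 ± 0.07 and Nms, which encodes neuromedin S, by -0.08 ± 0.06 (SE; limma, adjusted p = 0.538, 0.44 and 0.639). Signals of Six6 (3.55 to 3.88) and Nms (3.73 to 3.94) lay within the range of the liver genes.

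Genes whose pattern was most like that of Arntl and of Dbp were picked by Pearson's r over the 8 arrays among 9968 bright genes, as a description. Highest with Arntl were Gga1 (0.96), Prelp (0.94), Scd1 (0.94), Lhfpl2 (0.93) and Kl (0.93), the last a gene of choroid plexus. Lowest were Rbm45 (-0.95), Prpf38a (-0.93), Gdap10 (-0.92), Ptma-ps2 (-0.91) and Hif1a (-0.91). TNF+/+ array 1 was the lowest of the 8 for Arntl and for Kl (5.75, against 6.09 to 6.50 elsewhere) and the highest for Rbm45 (8.87) and Hif1a (9.34). Highest with Dbp were Ppp1r14c (0.98), Klhdc9 (0.95), Sf3b6 (0.95), Tmem18 (0.94) and Extl2 (0.93), and lowest were Auts2 (-0.99), Hipk3 (-0.99), Bsn (-0.98), Rtn4rl1 (-0.97) and Ankrd52 (-0.96). Bsn, which encodes a large protein of the presynapse, was at 8.01 in TNF-/- array 1 and at 7.26 in TNF-/- array 4, where Dbp was 7.75 and 8.34. In this ranking Nr1d1 was at place 198 and Ciart at 271 by likeness to Dbp, Clock at 977 and Per1 at 1498 by likeness to Arntl, and Dbp at 9105 of 9968.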

How the data were processed

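Total RNA from 8 mouse brains was hybridised to Affymetrix Mouse Gene 1.0 ST arrays, 4 per label. The deposited table holds the authors' log2 signal of 35556 probe sets; the log2 scale follows from the values. GCRMA, GCOS and Partek are listed, per the submitters' processing notes, with no role or version; a genome build is not named. Values were used as deposited, and the number of arrays limits the precision.

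Groups came from the titles. The platform annotation gave 21789 probe sets 1 symbol and 1621 several, and did not list 12146; the brightest probe set stood for each gene. Names of all 10 members matched RefSeq. The genotype term was tested in limma 3.58.1 (R 4.3.3), two-sided, with Benjamini-Hochberg adjustment across 35556 probe sets and a threshold of 0.05, beside an exact permutation test. Pearson's r and Spearman's rho across the 8 arrays had exact two-sided permutation p-values over 40320 orderings (Python 3.11.15, scipy 1.17.1, matplotlib 3.10.9). Scripts were tested on simulated data.

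The 10 members and the gene lists were chosen with earlier results of these data known. Named genes are the members, Tnf, the 3 genes of smallest p in each list, and the 5 highest and 5 lowest in r with Arntl and Dbp; other genes were named after their values were seen. Alternatives were SAM with 70 permutations, the test of the series' design text, other scalings, filters, variance models and array weights, a replicate block, other probe sets, and arrays left out. The labels call the replicates biological and do not say whether they came from separate litters, so p-values measure the spread between these samples.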

Additional observations from a re-analysis of the deposited data

Results flagged for a closer look

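Over the members, Tnf and the genes of smallest p in each list, 62 groups of 4 arrays were tested for an array lying far from the rest. This was found in 1 of them, where chance gives about 3. Signal of Tspan4, which encodes a tetraspanin, was 5.41 in TNF+/+ array 2 and 5.58 to 5.59 in the other 3 arrays labelled TNF+/+. None of the 10 clock genes had such an array in either group.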

How the results depend on the processing

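By limma, 0 of the 10 clock genes and 0 of the 22 further clock genes passed under every setting run, SAM and single arrays left out included. Over all probe sets 29 passed, against 53 by SAM, 63 with only probe sets of 1 symbol, 0 without TNF+/+ arrays 3 and 4, and 1 to 20 with single arrays left out (1 without TNF+/+ array 3). The replicate numbers were not taken to pair the arrays, since same-numbered arrays correlated at 0.0672, 0.112, 0.0974 and 0.0742 in their deviations, not all above 0.1. The 12 other pairs ran from -0.116 to 0.101, and only 3 of them were positive, whereas every same-numbered pair was. Of the 8 arrays, 6 correlated best with their own number, a hint from the data and not from the design. With the number as a block limma called 0 probe sets (4025 at an unadjusted p under 0.05); r of Tef with Ciart turned to 0.23, and correlations then had no p. Correlations called among members were 2 with the mean of all probe sets (Clock with Tef, Nr1d1 with Ciart) and 0 to 2 with single arrays left out. Negative pairs of Arntl or Clock numbered 8 to 10 of 16 with single arrays left out. Pairs with cue genes, a family added after seeing the data, gave 4 calls by Spearman's rho, 1 after quantile normalization, and 0 with array medians removed. With label means removed, or without TNF+/+ arrays 3 and 4, the 0 calls are void, since 5 or 4 pairs at the smallest possible p would be needed; single arrays left out gave 0 to 4. With single arrays left out the differences ran from -0.14 to 0.028 for Per1, -0.043 to 0.16 for Per2, -0.0050 to 0.12 for Nr1d2 and -0.16 to 0.036 for Rbm3, and so changed sign without the arrays named in the text (also -0.027 for Per2 and 0.0090 for Rbm3). Without TNF+/+ arrays 3 and 4 they were -0.099 for Per2 and -0.017 for Per3. Of the differences and correlations of single genes, 768 values kept their direction and side of the threshold, 9 reversed, 28 lost the threshold (all of Tnf, Per1 with Nr4a1 or Nr1d1 with Tsc22d3) and 6 gained it; the cause was not tested. E-boxes lay in 3 genes also before the start alone. Dim Per2 signal, near the array medians, and 4 arrays per group limit what can be seen.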

Other observations

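Some further clock genes, named after their values were seen, varied between arrays in ways no comparison above covers. Bhlhe41, a clock repressor gene, ran from 7.34 in TNF+/+ array 1 to 8.02 in TNF-/- array 4, the array with the highest Dbp, while its relative Bhlhe40 stayed between 7.34 and 7.66. Hlf, the third PAR bZIP gene beside Dbp and Tef, lay between 8.88 and 9.14 in all 8 arrays. Cry1, a repressor gene of the loop, was lowest in TNF-/- array 4 (6.28) and TNF+/+ array 4 (6.31).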
